A study of Mus musculus with 32 samples.

Results

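The lysyl oxidase and hyaluronan genes comprise 10 genes of 2 matrix systems: the lysyl oxidase family (Lox, Loxl1, Loxl2, Loxl3 and Loxl4) and genes that make or bind hyaluronan (Has1, Has2, Has3, Cd44 and Vcan). They were listed by gene symbol in the annotation of the array platform, not by a cut-off on a measured value, but with earlier results of these data known. Of the 10, 9 had a probe set of their own and 8 passed a filter on low signal, among 13705 genes tested in all. The tissue was the jaw of mouse embryos (strain label C57B6) at embryonic day 13.5. In the mutants, Alk5 (gene symbol Tgfbr1, a type I receptor for TGF-beta ligands) was deleted with floxed alleles and the Wnt1-Cre transgene, which acts in the neural crest and its descendants, so that other cell types of the jaw kept the receptor. Controls were littermates without the mutant phenotype, and the labels do not say which of them carried Cre or 1 floxed allele. According to the study design, mutants were recognised by cleft palate and a skull vault defect. Mandible (lower jaw) and maxilla (upper jaw) were each cut into a distal and a proximal end. This gave 8 groups of 4 arrays: mutant distal mandible, mutant proximal mandible, mutant distal maxilla and mutant proximal maxilla, and the same 4 regions in controls. Whether the arrays of a group came from separate embryos is not stated in the labels. The p-values therefore cover only the variation among these arrays, and some of it may be technical.

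Lysyl oxidases are secreted copper enzymes that oxidise lysines of collagen and elastin, the first step in the covalent cross-linking of both fibres. Hyaluronan is a long sugar polymer that hyaluronan synthases, the Has enzymes, extrude from the plasma membrane into the matrix. It is bound at the cell surface by the receptor CD44 and in the matrix by proteoglycans such as versican, the product of Vcan. Jaw mesenchyme, most of it derived from neural crest, is embedded in a matrix rich in hyaluronan, and TGF-beta signalling is known to act on matrix genes in many mesenchymal cells.

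Expression was given on a log2 scale, on which a difference of 1 is a doubling, and levels of different probe sets were not set against each other. Differences are given as mutant minus control, mandible minus maxilla or distal minus proximal, with standard errors (SE) from limma, and a change was called when its p-value, adjusted over all 13705 genes by the Benjamini-Hochberg method, was under 0.05. Where a gene had several probe sets past the filter, the one with the highest mean stood for it. Loxl2 could not be followed, because both of its probe sets are also annotated to Gm21451. Each of the 2 probe sets of Loxl4 lay above the filter level (each array's percentile 40, which was 6.66 to 6.86) on 3 of 32 arrays, so Loxl4 was near background and was not tested.

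RefSeq promoter windows were given for 4 of the 10 genes, Cd44, Vcan, Has1 and Loxl4. The window of Cd44 is shown because Cd44 had the most negative mutant to control difference of the 3 tested among them in every region. It covers the 250 bases before the annotated start, at chr2:102901666-102901915 on the minus strand of GRCm38.p6, with any CAGAC or GTCTG, the core of the element that Smad proteins bind, to be set in capitals.
Cd44: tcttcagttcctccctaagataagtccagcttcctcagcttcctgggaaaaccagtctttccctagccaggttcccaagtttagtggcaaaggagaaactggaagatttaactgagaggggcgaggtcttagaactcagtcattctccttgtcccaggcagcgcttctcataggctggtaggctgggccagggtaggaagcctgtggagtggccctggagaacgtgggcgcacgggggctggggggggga
No letters are in capitals, since this window held 0 copies of either form (1 motif read on both strands), as did that of Vcan. The window of Has1 held 2 copies and that of Loxl4 held 1. Of 32851 such windows in the RefSeq table, 42.2% held the motif, and a window without it says only that these letters are not there.

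Arrays numbered 1 stood apart in a spike-in control and, among controls, in tissue measures. Their Cre spike-in control, added at hybridisation, read 13.86 to 14.08, against 12.71 to 13.45 on the other 24 arrays. Among controls, number 1 was the highest array in 4 of 4 regions for the mean of the cartilage, osteoblast (6 measured of 12) and tendon markers and of the collagen fibre genes. Among mutants it was the highest in 0 of 4 regions for cartilage, 3 of 4 for osteoblast, 1 of 4 for tendon markers and 2 of 4 for the collagen fibre genes. The Gapdh 3' signal exceeded its 5' signal by 2.23 on control distal mandible array 3, and the difference was -0.18 to 0.12 on every other array. Xist, transcribed from the inactive X chromosome of female cells, read 13.34 to 13.90 on the arrays of mutant number 1 and 13.53 to 14.06 on those of control number 2, so these sets came from other embryos than the arrays of low Xist in their genotype. Control number 3 read 6.70 and 6.84 in distal and proximal mandible but 9.69 and 10.72 in distal and proximal maxilla, so that its jaws differed in Xist. Jaw mesenchyme markers were all measured (9 of 9), and lower jaw markers averaged 10.3 to 10.8 on mandible arrays and 7.76 to 9.22 on maxilla arrays. Tgfbr1 was not lower in mutants: it was higher by 0.28 in distal mandible (limma, adjusted p = 0.0411) and by 0.41 in distal maxilla (adjusted p = 0.00477). Where its probes lie relative to the deleted part is not known, so this does not check the labels.

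The first question was what loss of Alk5 in neural crest did to these genes in each region. In the mandible, Lox fell at the distal end and Has2 fell at both ends, and no gene of the 8 rose. In distal mandible, 2 of 8 genes passed the test, against 1.91% of all genes. In proximal mandible 1 of 8 passed, against 1.26% of all genes. None of the 8 passed in distal maxilla (0.788% of all genes) or proximal maxilla (0.0657%), and 0 had an unadjusted p under 0.05 in either. The median of the 8 mutant to control differences was -0.35 in distal mandible, -0.15 in proximal mandible, -0.25 in distal maxilla and -0.16 in proximal maxilla, where the medians of all genes lay between -0.03 and 0.02. All 8 genes were below 0 in distal mandible, and 6 of 8 in each of the other regions. In this bulk tissue, fewer cells of a type and less RNA per cell cannot be told apart.

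**Figure D1:**
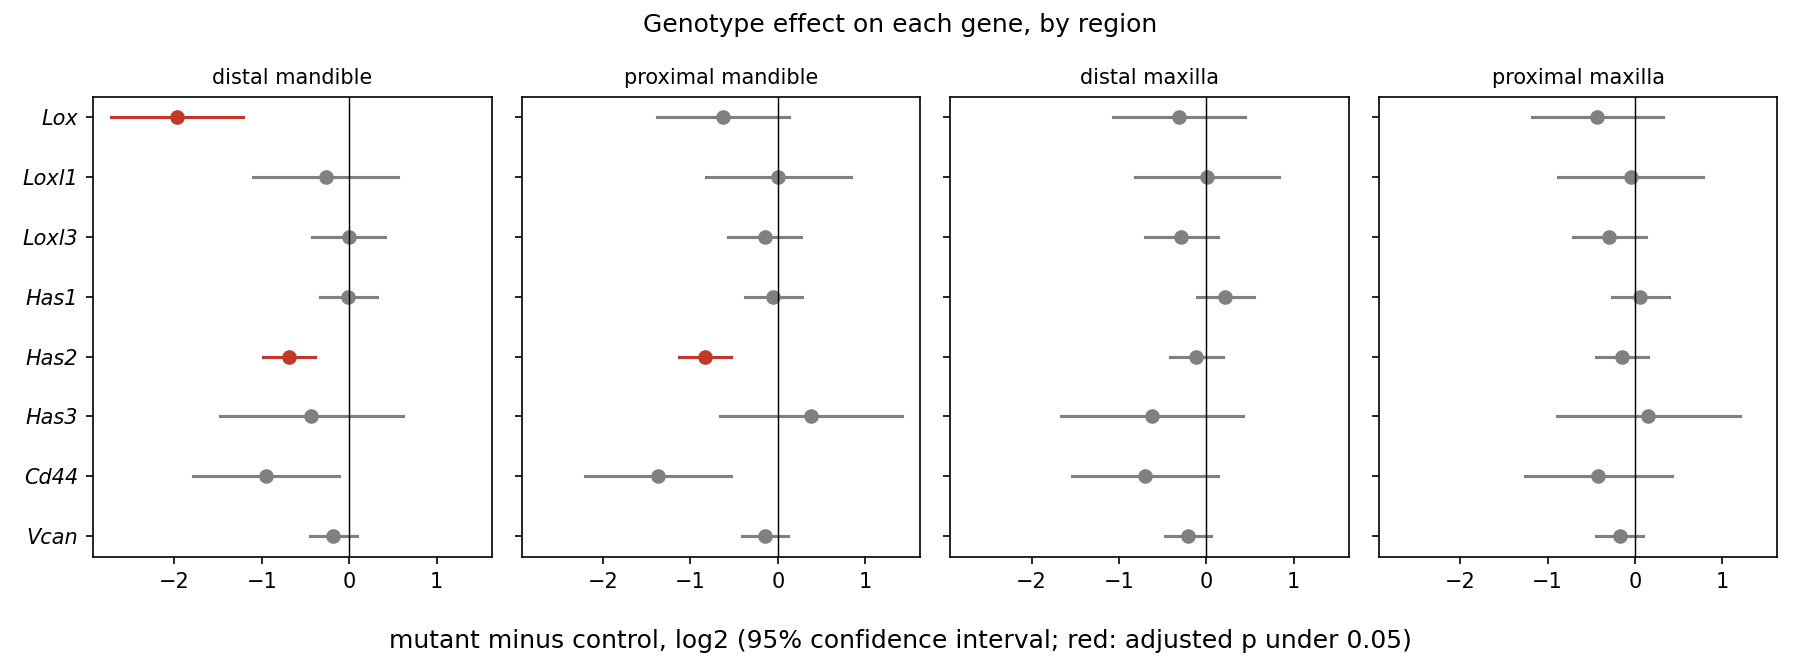
Mutant minus control difference (log2, x axis) of the 8 tested genes (rows) in the 4 regions (panels). Points are limma estimates, lines are 95% confidence intervals (n = 4 arrays a group), and red marks an adjusted p under 0.05: Lox (-1.97) and Has2 (-0.69) in distal mandible and Has2 (-0.84) in proximal mandible.

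Lox encodes the founding enzyme of the family. In distal mandible it read 9.10, 8.98, 8.94 and 8.97 on mutant arrays 1 to 4, against 12.34, 11.10, 10.29 and 10.15 on control arrays 1 to 4. The mutant arrays were tightly grouped and all below the controls, which were spread over more than 2 units with array 1 at the top. Lox was 3.92-fold lower in mutants (-1.97 ± 0.37 SE, limma, adjusted p = 0.00314), with a 95% confidence interval of -2.72 to -1.22. Without the arrays of number 1 the difference was -1.55 (adjusted p = 0.0175). It no longer passed when all arrays of number 2 were left out (-1.93, adjusted p = 0.0636) or in a fit of these 8 arrays alone (adjusted p = 0.0527). A second Lox probe set gave -1.64 (adjusted p = 0.0615). On it the genotypes overlapped, with mutant arrays at 7.45 to 8.05 and control arrays at 7.61 to 11.05.

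In proximal mandible, Lox read 12.20, 12.08, 12.11 and 11.88 on mutant arrays, against 13.34, 12.52, 12.46 and 12.46 on control arrays. These groups did not overlap either, with control array 1 far above the other control arrays, but the difference of -0.63 did not pass (limma, adjusted p = 0.547). Groups were free of overlap for 12.3% of all genes in distal mandible and 11.8% in proximal mandible, and for 3 and 2 of the 8 genes. The maxilla gave 11.16, 11.65, 11.35 and 12.23 on mutant distal arrays, against 12.23, 12.48, 11.14 and 11.78 on control distal arrays. At its proximal end mutant arrays read 11.50, 12.44, 12.05 and 11.00, against 12.77, 11.79, 12.01 and 12.15 in controls. Mutant and control arrays were interleaved at both ends of the maxilla, and the differences were -0.31 (95% confidence interval -1.06 to 0.44) and -0.43 (-1.18 to 0.32).

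**Figure D2:**
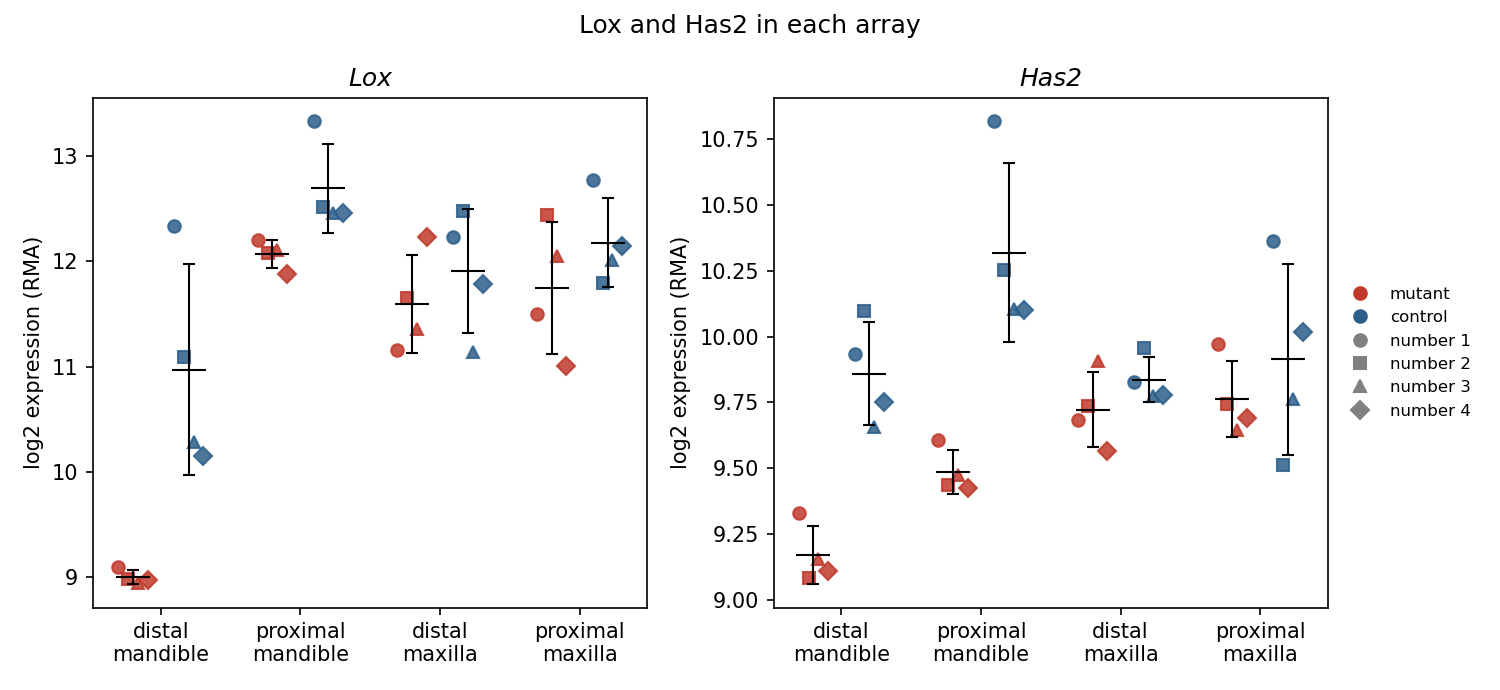
Lox (left) and Has2 (right) on each of the 32 arrays (log2, y axis) in the 4 regions, mutant in red and control in blue, with the marker shape giving the array number in the labels. Black bars are mean ± SD (n = 4); the mutant distal mandible is the lowest group for both genes, with Lox at 8.94 to 9.10.

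Some cell type markers also differed between the genotypes in the mandible, the macrophage markers in opposite directions at its distal and proximal ends. In distal mandible the 8 measured tendon markers (of 8 listed) averaged 8.72 to 8.91 on mutant arrays and 9.17 to 9.73 on control arrays, and 1 of them, Kera, fell (-2.07, limma, adjusted p = 0.0244). The 14 measured skeletal muscle markers (of 15) averaged 8.93 to 10.25 on mutant and 7.44 to 9.34 on control arrays, with 0 called. The 17 measured macrophage and leukocyte markers (of 18) averaged 7.85 to 8.03 on mutant and 7.98 to 8.66 on control arrays there, with 2 fallen. In proximal mandible they averaged 8.94 to 9.13 on mutant and 8.18 to 8.53 on control arrays, with 4 risen. The tendon markers averaged 8.91 to 9.10 on mutant and 9.52 to 10.27 on control proximal mandible arrays. All 12 neuron markers were measured, and in distal mandible they averaged 7.72 to 7.81 on mutant and 8.02 to 8.67 on control arrays, with 1 fallen. Both genes listed as upper jaw markers fell there, Pou3f3 (-1.63, limma, adjusted p = 0.00299) and Pantr1 (-2.82, adjusted p = 0.000346). Their mean was 9.39 to 9.78 on mutant and 11.59 to 11.94 on control arrays. In controls they did not mark the upper jaw: the group mean was 11.81 in distal and 11.53 in proximal mandible, against 10.94 and 11.23 in maxilla. The 6 measured osteoblast markers averaged 9.02 to 9.36 on mutant and 9.43 to 11.71 on control proximal mandible arrays, without overlap and with 0 called. The 14 measured cartilage markers (of 15) averaged 8.54 to 9.23 on mutant and 8.91 to 9.99 on control distal mandible arrays, with 0 called. In mutant distal mandible, 1 macrophage, 1 neuron, 1 cartilage and 1 osteoblast marker were below the filter level on every array, as were 1 cartilage marker in mutant proximal mandible and 1 muscle marker in control distal mandible. The part of these cell types in the results for Lox, Has2 and Cd44 was not tested.

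Loxl1, which is needed for elastic fibre upkeep, did not separate the genotypes in any region. In distal mandible it read 9.61, 8.60, 8.89 and 8.89 on mutant arrays, against 10.11, 8.86, 9.54 and 8.55 on control arrays. Mutant and control arrays overlapped, with array 1 highest in both genotypes. The difference was -0.27 (95% confidence interval -1.10 to 0.56) there and between -0.05 and 0.01 in the other regions. Those 3 intervals lay within -0.88 and 0.84, and the data do not speak to changes smaller than that. Among controls, array 1 was the highest Loxl1 value in all 4 regions (10.11 to 10.60, against 8.55 to 10.28 for numbers 2 to 4).

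Loxl3 codes for a family member that in mouse is needed for palate and spine development. In distal mandible it read 8.87, 9.20, 8.83 and 8.99 on mutant arrays, against 9.19, 8.87, 9.21 and 8.63 on control arrays, a difference of -0.01. At the proximal end of the maxilla it read 9.04, 10.06, 9.57 and 9.36 on mutant arrays, against 9.93, 9.76, 9.76 and 9.75 on control arrays. The mutant arrays fell on both sides of the controls. Differences in proximal mandible, distal maxilla and proximal maxilla were -0.15, -0.29 and -0.30, with adjusted p from 0.617 to 0.999 in limma.

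The collagen cross-linking and fibre genes of a fixed list (31 measured of 36) gave the context of Lox. Of these, 2 fell in distal mandible (1.91% of all genes were called), 4 in proximal mandible (1.26%), 1 in distal maxilla (0.788%) and 0 in proximal maxilla (0.0657%), and 0 rose in any region. The list's medians were -0.23, -0.38, -0.35 and -0.15 in these regions in the same order. The small leucine-rich proteoglycan gene Dcn, whose product decorates collagen fibrils, fell in distal mandible (-1.53 ± 0.32 SE, limma, adjusted p = 0.00893). Mfap4, a gene for a protein of elastic fibres, fell in distal mandible (-0.47, adjusted p = 0.0133), proximal mandible (-0.51, adjusted p = 0.00816) and distal maxilla (-0.42, adjusted p = 0.0478). In proximal mandible the elastic fibre gene Fbln5 (-0.96, adjusted p = 0.0169), the collagen prolyl hydroxylase gene P4ha3 (-1.12, adjusted p = 0.0475) and the fibril proteoglycan gene Lum (-0.91, adjusted p = 0.0105) also fell. The mean level of the list was 11.12 to 11.31 on mutant and 11.33 to 11.86 on control distal mandible arrays, with the control number 1 arrays the highest in every region.

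Has2 makes most of the hyaluronan of the mouse embryo. In distal mandible it read 9.33, 9.08, 9.16 and 9.11 on mutant arrays, against 9.93, 10.10, 9.65 and 9.75 on control arrays. Every mutant array lay below every control array, and the controls were not led by array 1. The 95% confidence interval of the difference was -0.99 to -0.39 (1.61-fold lower, limma, adjusted p = 0.00959). This call was lost when all arrays of number 2 (-0.58, adjusted p = 0.142), number 3 (-0.75, adjusted p = 0.0989) or number 4 (-0.71, adjusted p = 0.1) were left out, and with the second Has2 probe set (-0.53, adjusted p = 0.188). On that probe set the genotypes overlapped, with mutant arrays at 8.55 to 8.92 and control arrays at 8.79 to 9.84.

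At the proximal end of the mandible Has2 read 9.61, 9.44, 9.47 and 9.42 on mutant arrays, against 10.82, 10.25, 10.11 and 10.10 on control arrays. The groups stood apart, with control array 1 the highest. The 95% confidence interval was -1.13 to -0.54 (1.78-fold lower, limma, adjusted p = 0.0026). This difference passed in all 12 fits that left out an array or a number (adjusted p from 0.00285 to 0.0424) and in all 12 other settings, among them the second probe set (-0.94, adjusted p = 0.0145).

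In the maxilla, Has2 read 9.68, 9.74, 9.91 and 9.56 on mutant distal arrays, against 9.83, 9.96, 9.78 and 9.78 on control distal arrays. Its proximal end gave 9.97, 9.74, 9.65 and 9.69 on mutant arrays, against 10.36, 9.51, 9.76 and 10.02 on control arrays. The genotypes overlapped at both ends. The differences were -0.11 (95% confidence interval -0.41 to 0.19) and -0.15 (-0.45 to 0.15), so a fall in the maxilla as large as the -0.84 of the proximal mandible lay outside both intervals.

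Has1 and Has3, which make hyaluronan as well, gave no genotype call. Has1 read 7.22 to 7.31 on mutant and 7.15 to 7.39 on control distal mandible arrays, and over all 32 arrays it ranged between 6.97 and 8.20. The highest of these, 8.20, was mutant distal maxilla array 1, whose group otherwise read at most 7.33. Mutant to control differences of Has1 lay between -0.05 and 0.22. Has3 lay above the filter level on 25 of 32 arrays. It read 7.82, 7.73, 8.04 and 8.18 on mutant distal mandible arrays, against 9.10, 8.05, 8.25 and 8.10 on control arrays. The ranges overlapped, with control array 1 above all others, and the difference was -0.43 ± 0.51 SE. In distal maxilla Has3 spanned 6.45 to 8.20 on mutant and 6.13 to 9.05 on control arrays, a spread within each genotype larger than the difference of -0.62 between their means.

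Cd44, the hyaluronan receptor gene, was the member in which 1 set of arrays weighed most. In distal mandible it read 9.76, 9.28, 9.25 and 9.49 on mutant arrays, against 11.44, 10.22, 10.05 and 9.87 on control arrays. The groups did not overlap, and control array 1 was more than 1 unit above the next. The difference of -0.95 ± 0.41 SE did not pass (limma, adjusted p = 0.24). Proximal mandible gave 9.72, 8.78, 8.35 and 8.47 on mutant arrays, against 11.56, 9.63, 9.70 and 9.90 on control arrays. Array 1 was the highest in both genotypes, and only mutant array 1 reached the control range. That difference of -1.37 ± 0.41 SE did not pass either (adjusted p = 0.103).

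Both mandible differences of Cd44 passed in fits without number 1 or with number 1 as a covariate. Without the arrays of number 1 they were -0.71 (limma, adjusted p = 0.00626) at the distal and -1.21 (adjusted p = 5.16e-05) at the proximal end. With number 1 as a covariate, the adjusted p-values were 0.0257 and 0.00229 for unchanged differences. That covariate is 1 shift shared by both genotypes, so it does not remove the larger excess of number 1 in controls. Of 12 fits that left out an array or a number, 1 passed at each end, that without number 1. The adjusted p-values of such fits reached 0.722 at the distal and 0.548 at the proximal end. A second Cd44 probe set gave -1.08 (adjusted p = 0.125) and -1.41 (adjusted p = 0.0472) with all arrays, and the third gave -0.40 (adjusted p = 0.792) and -1.29 (adjusted p = 0.296). Whether the high control values of number 1 come from handling or from the tissue was not tested.

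In the maxilla, Cd44 read 9.14, 8.96, 9.20 and 9.36 on mutant distal arrays, against 11.12, 9.29, 9.60 and 9.47 on control distal arrays. The proximal end gave 9.55, 9.37, 9.68 and 9.43 in mutants, against 10.85, 9.63, 9.65 and 9.57 in controls. Control array 1 again stood far above, and the other arrays of the genotypes touched or overlapped. The differences were -0.70 (adjusted p = 0.506) and -0.42 (adjusted p = 0.999) in limma.

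**Figure D3:**
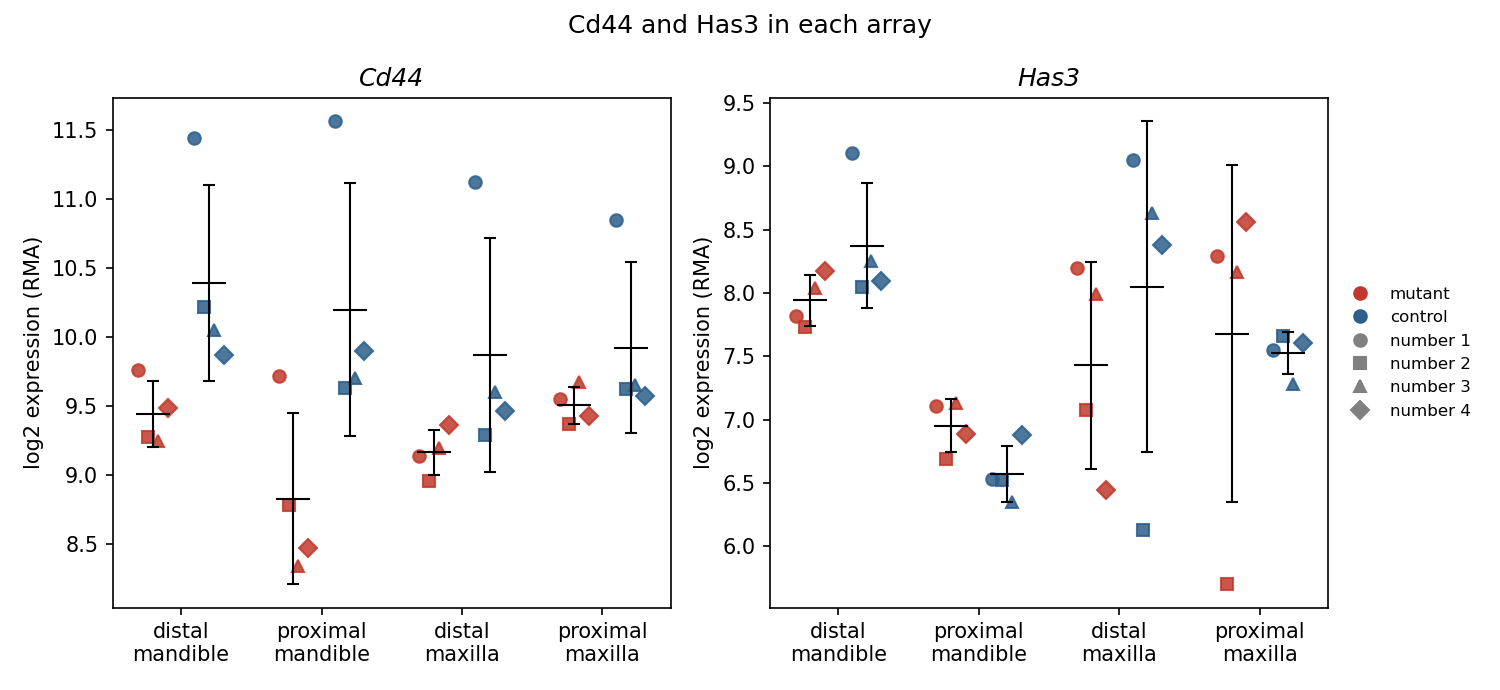
Cd44 (left) and Has3 (right) on each array (log2, y axis) in the 4 regions, mutant in red and control in blue, with the marker shape giving the array number. Black bars are mean ± SD (n = 4); the control number 1 arrays (circles) of Cd44 read 10.85 to 11.56, above the 9.29 to 10.22 of control numbers 2 to 4.

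Vcan, for the hyaluronan-binding proteoglycan versican, gave no genotype call. Mutant distal mandible arrays read 12.89, 13.19, 12.99 and 13.07, against 13.59, 13.26, 12.80 and 13.20 in controls. Mutant distal maxilla arrays read 13.14, 13.03, 13.08 and 13.07, against 13.46, 13.50, 13.29 and 12.91 in controls. The mutant mean was lower in every region, by 0.15 to 0.21, but arrays of the genotypes overlapped and 0 of the 4 differences passed (adjusted p from 0.533 to 0.999 in limma). The 3 other Vcan probe sets past the filter were also lower in mutants in every region, with 0 calls. The differences were -0.20 to -0.35 and -0.23 to -0.40 for 2 of them. The third, dim and above the filter level on 13 of 32 arrays, gave -0.52 to -0.94, the last in distal mandible (adjusted p = 0.186).

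Over the mean of the 4 regions of each genotype and number (4 against 4 values), 0 of 8 genes passed in limma, against 1.37% of all genes, although 3 had an unadjusted p under 0.05. Control number 3 entered as 1 value although Xist differed between its jaws, so that value may not stand for 1 embryo. Lox averaged 10.99 to 11.29 in mutants and 11.48 to 12.67 in controls (-0.84, adjusted p = 0.14). Has2 averaged 9.45 to 9.65 in mutants and 9.83 to 10.24 in controls (-0.45, adjusted p = 0.0604), and its second probe set passed (-0.46, adjusted p = 0.0498). Cd44 averaged 9.10 to 9.54 in mutants and 9.69 to 11.24 in controls (-0.86, adjusted p = 0.286). For these 3 genes the genotypes did not overlap, as for 11% of all genes. Same-numbered averages deviated together, and with the number as a block Has2 passed (adjusted p = 0.0298), while Lox (adjusted p = 0.104) and Cd44 (adjusted p = 0.0938) did not. With number 1 as a covariate all 3 passed (adjusted p = 0.0493 for Lox, 0.00502 for Has2 and 0.0301 for Cd44). Without number 1, Has2 (-0.40, adjusted p = 0.00664) and Cd44 (-0.58, adjusted p = 0.0015) passed and Lox did not (-0.55, adjusted p = 0.0537).

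The other genes of hyaluronan metabolism and binding in a fixed list (30 measured of 39: precursor enzymes, hyaluronidases, link proteins, other receptors and versican proteases) gave 0 genotype calls in any region or on average in limma. Their medians were -0.06 in distal mandible, -0.14 in proximal mandible, -0.03 in distal maxilla and 0.00 in proximal maxilla. The medians of all genes were -0.03, 0.01, -0.03 and 0.02 in the same order. In distal mandible 22 of 30 were below 0 and in proximal mandible 23 of 30, and 18 and 15 of 30 in distal and proximal maxilla. The share of all genes below 0 was not counted, so these counts have no background beside them. In each of the 8 groups, 1 to 3 of the 30 genes lay below the filter level on every array. The lack of calls thus includes genes near background.

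The design also asked how the jaws differ. In the mutant distal end, Lox was 6.07-fold lower in mandible than in maxilla (-2.60 ± 0.37 SE, limma, adjusted p = 1.58e-05), with all mandible arrays below all maxilla arrays. Has2 was 1.47-fold lower there (-0.55 ± 0.15 SE, adjusted p = 0.0108), again without overlap. Thus 2 of 8 genes passed, against 13.7% of all genes. The Lox call held in all 12 fits that left out an array or a number. That of Has2 was lost without number 2 (adjusted p = 0.0705), number 3 (adjusted p = 0.114) or number 4 (adjusted p = 0.0686). It was lost as well with the second probe set (-0.36, adjusted p = 0.261) and with the mean of the probe sets (adjusted p = 0.0558). On the second Has2 probe set the jaws overlapped (8.55 to 8.92 in mandible and 8.82 to 9.56 in maxilla). Cell type markers differed between the same arrays. Of 17 macrophage markers 14 were lower and 1 higher in the mandible, averaging 7.85 to 8.03 there and 8.31 to 9.44 in the maxilla. Of 14 muscle markers 11 were higher and 1 lower (8.93 to 10.25 in mandible and 7.13 to 8.57 in maxilla, where 1 was below the filter level on every array). Of 12 neuron markers 9 were lower (7.72 to 7.81 in mandible and 9.88 to 11.16 in maxilla), and the part of these cells in the Lox and Has2 differences was not tested.

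At the mutant proximal end 0 of 8 passed (3.06% of all genes). Same-numbered arrays deviated together in this comparison, and with genotype and number as blocks Cd44 was lower in the mandible (-0.68, limma, adjusted p = 0.0316). It was -0.96 (adjusted p = 0.000208) without number 1. Cd44 passed there in 1 of 12 fits that left out an array or a number and in 3 of 14 other settings. In controls 0 of 8 passed at the distal end (1.47% of all genes) and 0 at the proximal end (5.4%), with unadjusted p under 0.05 for 2 genes and 1 gene. The control distal difference of Lox was -0.94 (adjusted p = 0.296), where control distal mandible array 1 (12.34) lay inside the maxilla range. It was -1.40 (adjusted p = 0.0218) without that array and -1.29 (adjusted p = 0.0467) without number 1. These were the only 2 passes among 12 fits that left out an array or a number (adjusted p up to 0.796). None of 13 other settings passed (adjusted p from 0.108 to 0.77). Cd44 was higher in the control distal mandible by 0.52 (adjusted p = 0.789), and by 0.59 (adjusted p = 0.0172) without number 1. That difference passed in 1 of 12 such fits and in 1 of 14 other settings. The third Cd44 probe set gave 0.02 (adjusted p = 0.997). Has2 was higher in the control proximal mandible by 0.41 (adjusted p = 0.121), by 0.41 (adjusted p = 0.0382) with number 1 as a covariate and by 0.56 (adjusted p = 0.0183) without control proximal maxilla array 1. It passed in 1 of 12 such fits and in 3 of 13 other settings.

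The next question was how the ends of a jaw differ. Lox was lower at the distal than at the proximal end in mutants (-3.07 ± 0.37 SE, 8.41-fold, limma, adjusted p = 2.7e-06) and in controls (-1.73 ± 0.37 SE, 3.31-fold, adjusted p = 0.00541). The arrays behind both differences are those given above, and the ends did not overlap in either genotype. In mutants 1 of 8 genes passed, against 5.03% of all genes, and in controls 2 of 8 passed, against 4.84%. The ends did not overlap for 4 of 8 genes in mutants (18% of all genes) and 4 of 8 in controls (11.2%). The mutant call of Lox held in all 12 fits that left out an array or a number, and the control call in 10 of 12, failing without number 3 (-1.58, adjusted p = 0.128) or number 4 (-1.53, adjusted p = 0.0668).

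Cell type markers also differed between the ends of the mandible. In mutants, 14 of 17 macrophage markers were lower distally (7.85 to 8.03 at the distal and 8.94 to 9.13 at the proximal end), against 0 called in controls. Of the mutant cartilage markers 2 of 14 were lower (8.54 to 9.23 distally and 9.08 to 9.61 proximally), and of 8 tendon markers 1 was higher and 1 lower. In controls, 7 of 14 muscle markers (7.44 to 9.34 distally and 10.16 to 10.85 proximally) and 2 of 8 tendon markers (9.17 to 9.73 distally and 9.52 to 10.27 proximally) were lower. Of 10 oral epithelium markers 3 were higher distally in controls (10.57 to 11.25 distally and 9.64 to 10.37 proximally). Neuron markers were lower distally for 2 of 12 in each genotype, and both genes listed as upper jaw markers were lower distally in mutants. Their part in the end differences of Lox and Has3 was not tested.

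Has3 was higher at the distal end of the control mandible. It read 9.10, 8.05, 8.25 and 8.10 distally, against 6.53, 6.52, 6.35 and 6.88 proximally, a difference of 1.80 ± 0.51 SE (3.49-fold, limma, adjusted p = 0.0366). The ends did not overlap, and at the proximal end 1 of 4 arrays lay above the filter level, so the size is approximate. This call held in 1 of 12 fits that left out an array or a number (adjusted p from 0.0041 to 0.326), failing for example without control distal mandible array 1 (1.56, adjusted p = 0.0963) or number 1 (1.55, adjusted p = 0.137). In mutants Has3 read 7.82, 7.73, 8.04 and 8.18 distally, against 7.11, 6.69, 7.13 and 6.89 proximally. The ends did not overlap there either, but the difference of 0.99 did not pass (adjusted p = 0.382), and the change of the end difference with genotype was -0.81 ± 0.72 SE (adjusted p = 0.999).

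Has2 was lower at the distal end by 0.32 in mutants (limma, adjusted p = 0.292) and by 0.46 in controls (adjusted p = 0.0691), without overlap of the ends in either. On the second Has2 probe set the control ends overlapped (8.79 to 9.84 distally and 9.78 to 10.23 proximally). The control difference of the tested probe set passed with number 1 as a covariate (adjusted p = 0.0201). It passed in 1 of 12 fits that left out an array or a number and in 4 of 13 other settings. Loxl3 was lower distally by 0.40 in mutants (adjusted p = 0.368) and by 0.55 in controls (adjusted p = 0.144), without overlap of the ends in either. Cd44 was higher at the distal end in mutants by 0.62 (adjusted p = 0.567). Same-numbered arrays deviated together in the mutant mandible, and with genotype and number as blocks this difference passed (adjusted p = 0.0377), as it did without number 1 (0.81, adjusted p = 0.000911). It passed in 1 of 12 fits that left out an array or a number and in 3 of 14 other settings. No gene of the 8 passed between the ends of the mutant maxilla or the control maxilla. There limma called 0 of 13705 genes, or 0%, in each, and 0 of the 8 had an unadjusted p under 0.05.

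**Figure D4:**
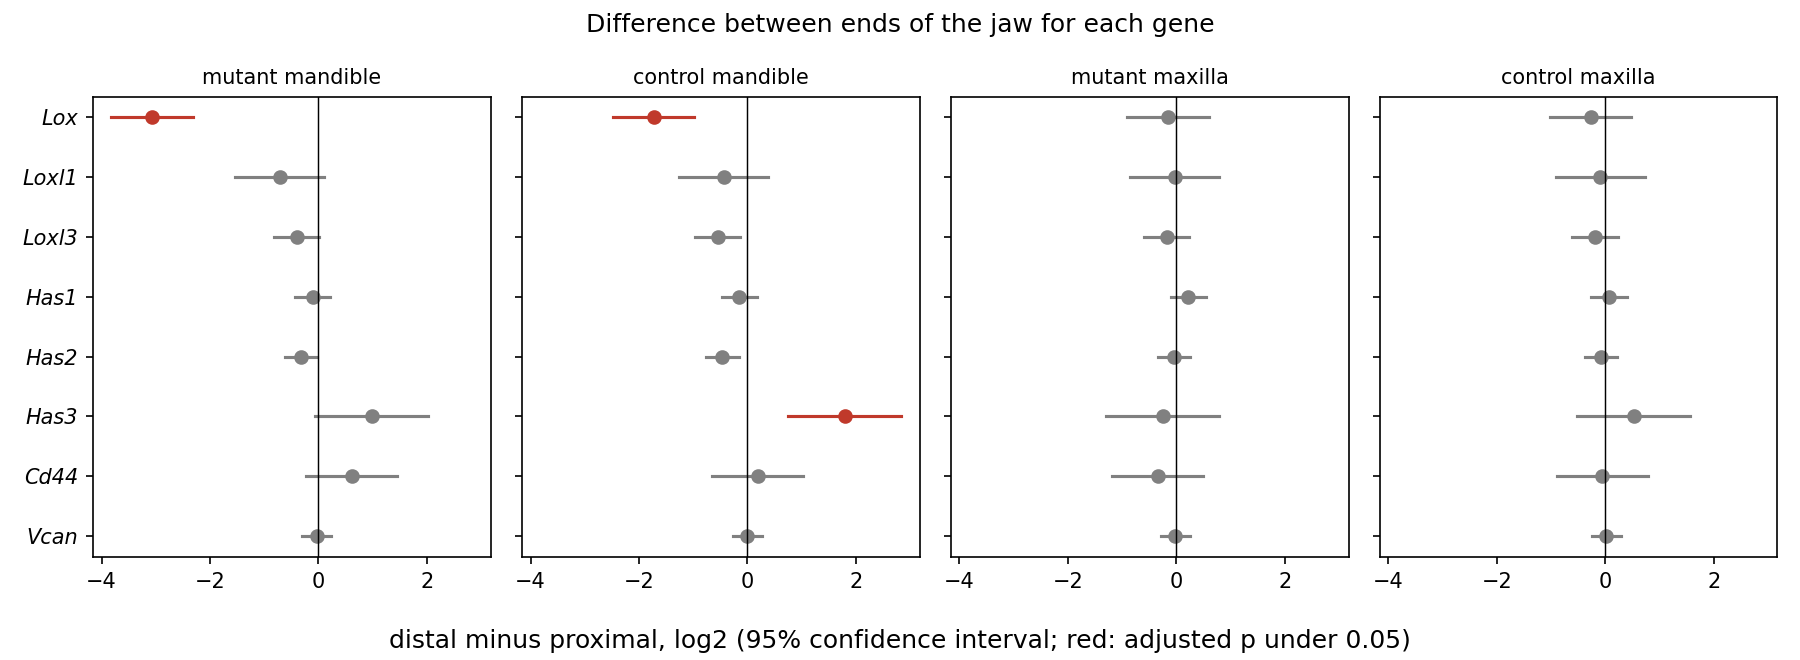
Distal minus proximal difference (log2, x axis) of the 8 genes (rows) in mutant mandible, control mandible, mutant maxilla and control maxilla (panels). Points are limma estimates and lines are 95% confidence intervals (n = 4 arrays a group), with an adjusted p under 0.05 in red: Lox in both mandible panels (-3.07 and -1.73) and Has3 in control mandible (1.80).

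Whether the genotype effect itself differed between regions was tested by interactions in limma. In none of the 4 did a member pass: by end in mandible (0.0219% of all genes), by end in maxilla (0.0584%), by jaw at the distal end (0.102%) and by jaw at the proximal end (0.0073%). The genotype effect on Lox was more negative at the distal than the proximal end of the mandible by 1.35 (unadjusted p = 0.0151, adjusted p = 0.935), and more negative in mandible than maxilla distally by 1.66 (unadjusted p = 0.00348, adjusted p = 0.394). For Has2 the effect was more negative in mandible than maxilla by 0.58 distally (adjusted p = 0.508) and by 0.68 proximally (unadjusted p = 0.00263, adjusted p = 1). The larger falls of Lox and Has2 in the mandible were therefore not shown to differ from the maxilla after adjustment over all genes.

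Ordered by group mean, Lox spanned 3.70 units (13.0-fold), with mutant distal mandible lowest at 9.00 and control proximal mandible highest at 12.70. The 7 higher groups each overlapped the next, and only mutant distal mandible stood below its neighbour, control distal mandible at 10.97. On the second Lox probe set mutant and control distal mandible overlapped. Has2 spanned 1.15 units between mutant distal mandible (9.17) and control proximal mandible (10.32), and mutant distal mandible was again the one group free of its neighbour. Has3 spanned 1.80, Cd44 1.56, Loxl3 0.83 and Loxl1 0.71 units, with every neighbouring pair overlapping. Has1 and Vcan spanned 0.29 and 0.26 units on the probe sets tested.

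Across the 8 group means, the genes most like Lox were Fat3, a cadherin family gene (Pearson r = 0.995), the diacylglycerol lipase gene Dagla (r = 0.987) and Tom1l2 (r = 0.987). Those most like Has2 were the amidase gene Naaa (r = 0.977), Capn7 of the calpain family (r = 0.972) and Chac1, of glutathione breakdown (r = 0.963). These are descriptions over 8 points that share their arrays, picked as the highest of 13705 genes. Group means of Chac1 were 6.67 to 7.04, near the filter level of 6.66 to 6.86. Those of Dagla (7.27 to 7.65) and Tom1l2 (9.58 to 9.99) covered a much smaller range than those of Lox (9.00 to 12.70).

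Several genes of the hyaluronan list differed by position. Adamts1, a versican protease gene, was lower at the distal end of the mandible in mutants (-1.07, limma, adjusted p = 0.000428) and in controls (-1.35, adjusted p = 7.08e-05). Adamts9, of the same protease family, was lower there too (-0.91, adjusted p = 0.0317 in mutants and -0.997, adjusted p = 0.0193 in controls). Ptx3, whose product helps assemble hyaluronan matrix, was lower distally in the mutant mandible (-1.16, adjusted p = 0.00108). Itih5, of the inter-alpha-trypsin inhibitor heavy chains that are linked to hyaluronan, was higher distally in the mutant mandible (1.15, adjusted p = 0.00596). Hmmr, a hyaluronan receptor gene active in dividing cells, was higher distally in the control mandible (0.35, adjusted p = 0.023). In all, 1 was higher and 3 were lower distally in mutants (5.03% of all genes were called) and 1 was higher and 2 were lower in controls (4.84%), of 30 measured.

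Between the jaws, 3 of these 30 genes were lower in the mutant distal mandible than in the maxilla, where 13.7% of all genes were called. They were Ptx3 (-0.67, limma, adjusted p = 0.0373), Adamts1 (-0.75, adjusted p = 0.0061) and the receptor gene Tlr2 (-0.52, adjusted p = 0.0105). At the mutant proximal end Itih5 was lower in the mandible (-1.41, adjusted p = 0.00111), 1 of 30 against 3.06% of all genes. In controls Ptx3 was lower in the distal mandible (-0.92, adjusted p = 0.0202), 1 of 30 against 1.47%. At the control proximal end Itih5 was lower (-1.10, adjusted p = 0.00733), while Adamts1 (0.62, adjusted p = 0.0422) and Adamts9 (0.86, adjusted p = 0.0453) were higher, 3 of 30 against 5.4%.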

How the data were processed

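The authors' deposited values are log2 expression values, produced by RMA, per the submitters' processing notes, which give no version. RMA corrects background, equalises the arrays' quantiles and summarises each probe set by median polish. It compresses differences at low signal and removes any shift common to most genes. Scanner files were not used here. RNA was column-purified total RNA, per the labels' protocols.

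Symbols came from the platform annotation: of 45101 probe sets, 34945 had 1 symbol, 932 several, 9160 none and 64 were controls. Of the single-symbol probe sets, 34741 matched a RefSeq table (GRCm38.p6), which changed 0 symbols. Probe sets had to exceed percentile 40 of the array on 4 or more arrays. A model of 8 group means was fitted with limma 3.58.1 in R 4.3.3, leaving 24 residual degrees of freedom. For the average genotype effect, limma was fitted to the mean of the 4 regions of each genotype and number. P-values were adjusted by the Benjamini-Hochberg method over 13705 genes, and all adjusted p-values are limma's. The script was tested on simulated data.

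Within groups, arrays correlated at 0.926 to 0.997, and their number limits the precision. Same-numbered arrays deviated together (every pair above r = 0.1) in 3 comparisons: the average (0.20 to 0.44), mutant proximal mandible against maxilla (0.20 to 0.38) and the ends of the mutant mandible (0.19 to 0.67). This is evidence from the data, not a label. In the other comparisons some pairs were lower, which does not show that the numbers are unpaired there. Between the ends of the control mandible, r was 0.54, 0.42, 0.01 and 0.30 for numbers 1, 2, 3 and 4. Alternatives were other filters, probe set rules, array weights, blocks, fewer groups and left-out arrays. The genes always named were the 10 members, up to 4 called genes of a list, and the 3 genes most like Lox and Has2. Members, lists and tests were chosen with earlier results of these data known.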

Additional observations from a re-analysis of the deposited data

Results flagged for a closer look

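In groups of 4 arrays, 6 of 64 gaps between the extreme array and its nearest neighbour were too large a share of the group's range by Dixon's test at the 95% level, where chance gives about 1 in 20. Of the 6, 5 were control arrays of number 1. Cd44 read 11.56 on control proximal mandible array 1, where its 3 companions read 9.63 to 9.90. It read 11.12 on control distal maxilla array 1, against 9.29 to 9.60, and 10.85 on control proximal maxilla array 1, against 9.57 to 9.65. Lox read 13.34 on control proximal mandible array 1, against 12.46 to 12.52. Loxl3 read 9.93 on control proximal maxilla array 1, against 9.75 to 9.76, a gap that is small in size. Has3 read 5.70 on mutant proximal maxilla array 2, against 8.17 to 8.56 on the others.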

How the results depend on the processing

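Of 952 recomputed values of 37 member differences, 858 kept their side of the threshold, 27 no longer passed, 67 newly passed and 0 changed sign. The 37 were chosen for an unadjusted p under 0.05 or a call in any alternative. Their stable sign is therefore no check, since small differences were left out. Outside the 37, the second Has2 probe set gave -0.06 between control distal jaws, opposite in sign to the tested probe set. With array weights, members called were 4 in distal mandible, 2 in proximal mandible, 1 in distal maxilla, 2 on average, 4 and 2 between jaws in mutants (distal and proximal), 1 and 1 in controls, 6 between the ends of the mutant mandible and 4 in controls, and 1, 2 and 1 in the interactions by end in mandible, by jaw distally and by jaw proximally. Array weights also raised the calls over all genes, in the same order to 19.3%, 24.6%, 18.1%, 9.64%, 42.2%, 25.8%, 8.73%, 19.2%, 29%, 32.4%, 4.25%, 6.64% and 1.13%. In fits of only the groups compared, counts were 1 in distal mandible, 4 between the ends of the mutant mandible, 1 in controls and 1 between control proximal jaws. With the replicate block (number), counts were 3 in distal mandible, 2 in proximal mandible, 1 on average and 3 between the ends of the control mandible. With number 1 as a covariate they were 3, 2, 3 and 3 in these, and 1 between control proximal jaws. The block of genotype by number gave 1 between mutant proximal jaws, 2 between the ends of the mutant mandible and 3 in controls. The mean of probe sets gave 1 on average and 1 between mutant distal jaws. Leaving out number 1 and control distal mandible array 3, chosen after seeing the data, gave 2 in proximal mandible, 3 on average, 1 between mutant proximal jaws, 2 between the ends of the mutant mandible, 1 in each control comparison of jaws and 1 between the ends of the control mandible. Over all genes, these and other settings, array weights among them, called 171 to 2641 in distal mandible (main fit 262). They called 155 to 3368 in proximal mandible (172) and 160 to 1321 on average (188). Between mandible ends they called 645 to 3979 in mutants (690) and 591 to 4445 in controls (664). Between distal jaws they called 1269 to 5779 in mutants and 115 to 1197 in controls. Between proximal jaws they called 225 to 3539 and 412 to 2625. Shares by setting are not given. The cause of these changes was not tested.

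Where the numbers do not pair the arrays, the replicate block moved Cd44 in distal mandible to an adjusted p of 0.0338 and in proximal mandible to 0.00433, and Has2 between the ends of the control mandible to 0.0272. Beside Has2 on average, it changed no other member call, and the block of genotype by number gave 0.0296 for Has2 between the ends of the control mandible. Leaving out an array or a number gave 0 to 3 members in distal mandible, 1 to 2 in proximal mandible, 0 to 2 on average, 1 to 2 and 0 to 1 between mutant distal and proximal jaws, 0 to 2 and 0 to 1 between control jaws, 1 to 2 and 0 to 2 between the ends of the mutant and control mandible, and 0 to 1 in the interaction by jaw proximally. Over all genes, such fits called 33 to 351 in distal mandible (262 with every array), 33 to 198 in proximal mandible (172), 3 to 328 in distal maxilla (108), 0 to 32 in proximal maxilla (9) and 1 to 939 on average (188). They called 212 to 690 between the ends of the mutant mandible (690) and 96 to 937 in controls (664). Between distal jaws they called 958 to 2137 in mutants (1874) and 66 to 351 in controls (202). Between proximal jaws they called 127 to 628 in mutants (420) and 267 to 884 in controls (740). In the interaction by jaw proximally they called 0 to 3 (1). Signal limits Has3, Loxl4 and Has1, which lay nearest to background.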
